A study of Mus musculus with 4 samples.

Results

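The genes described here encode the Sin3, HDAC and NuRD corepressors and closely related proteins, and they were examined for differences in chromatin accessibility between Sin3B+/+ and Sin3B-/- long-term hematopoietic stem cells (LT-HSCs). They are 48 genes, chosen by name for what their proteins do, and a peak belonged to them when the table of differentially accessible peaks gave their symbol. By this rule 13 of the 48 genes had at least 1 peak, with 19 peaks among the 5332 of the table, and 35 genes had no row under their own name. ATAC-Seq reads out open chromatin as the DNA that the Tn5 transposase can reach, and it had been performed on 2 libraries of each genotype, labelled WT and KO. The controls, labelled WT, are named both Sin3B+/+ and Sin3B F/F (floxed, with functional Sin3B) in the study, so whether they carried the floxed allele is not settled, and in the Sin3B-/- mice the floxed Sin3B allele was deleted by Vav1-iCre, a recombinase active throughout the hematopoietic system. All mice were C57BL/6 at homeostasis, their age was not given in the sources used here, and each library pooled LT-HSCs from 2 mice, sorted as lineage-negative, Sca-1+, cKit+ cells that were CD150+ and lacked Flk2 and CD48. The values are normalized reads per peak, here called levels, and positions are on GRCm38.

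Corepressors are protein assemblies that have no DNA sequence preference of their own and are brought to genes by transcription factors, where they remove acetyl groups from histones and so favour closed chromatin. Sin3a and Sin3b are alternative scaffolds of the Sin3 complex, NuRD couples deacetylation to nucleosome remodelling, CoREST couples it to histone demethylation, and NCoR/SMRT serves mainly nuclear receptors. Hdac1 and Hdac2 are the shared catalytic subunits of the Sin3, NuRD and CoREST complexes, while the class IIa enzymes act in other assemblies and the sirtuins use a different cofactor. Sin3B is known for restraining cell cycle genes as cells leave the cycle, in part with the DREAM complex, which contains relatives of the RB protein.

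The DNA just before an annotated start site is shown for the Sin3b paralogue Sin3a, and for the 4 genes with a promoter peak whose levels differed most. Each run is 250 bases of GRCm38 that lie inside a differential peak and touch no annotated exon, read 5′ to 3′ on the strand of the gene, and capitals mark GGGCGG or its reverse complement, the letters that SP-family factors recognize. The positions are chr9:57076126-57076375 (plus strand) for Sin3a, chr8:11557946-11558195 (plus) for the second start of Ing1, chr8:69996385-69996634 (minus) for Gatad2a, chr12:111039101-111039350 (plus) for Rcor1 and chr13:14063535-14063784 (plus) for Arid4b. The Sin3a and Arid4b runs also precede a later start, since these genes begin upstream, at 57072040 and 14063232.
Sin3a: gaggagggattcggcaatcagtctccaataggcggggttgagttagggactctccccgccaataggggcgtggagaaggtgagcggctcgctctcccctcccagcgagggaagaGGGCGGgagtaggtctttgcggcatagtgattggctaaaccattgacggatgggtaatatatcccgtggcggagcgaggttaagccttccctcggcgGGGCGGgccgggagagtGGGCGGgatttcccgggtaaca
Ing1, second start: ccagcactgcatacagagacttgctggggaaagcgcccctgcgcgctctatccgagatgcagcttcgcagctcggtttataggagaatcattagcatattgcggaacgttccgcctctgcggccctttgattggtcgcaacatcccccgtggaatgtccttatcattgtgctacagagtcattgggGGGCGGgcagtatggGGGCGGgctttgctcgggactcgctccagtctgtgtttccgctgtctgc
Gatad2a: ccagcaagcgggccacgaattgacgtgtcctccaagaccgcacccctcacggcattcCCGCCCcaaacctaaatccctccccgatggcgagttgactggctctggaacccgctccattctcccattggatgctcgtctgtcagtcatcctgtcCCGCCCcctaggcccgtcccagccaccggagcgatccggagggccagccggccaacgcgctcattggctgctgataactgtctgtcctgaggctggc
Rcor1: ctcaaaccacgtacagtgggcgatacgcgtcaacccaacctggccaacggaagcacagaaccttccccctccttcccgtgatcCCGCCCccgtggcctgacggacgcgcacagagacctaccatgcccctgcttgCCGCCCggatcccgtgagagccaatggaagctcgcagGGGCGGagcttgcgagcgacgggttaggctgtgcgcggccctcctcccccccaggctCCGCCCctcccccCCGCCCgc
Arid4b: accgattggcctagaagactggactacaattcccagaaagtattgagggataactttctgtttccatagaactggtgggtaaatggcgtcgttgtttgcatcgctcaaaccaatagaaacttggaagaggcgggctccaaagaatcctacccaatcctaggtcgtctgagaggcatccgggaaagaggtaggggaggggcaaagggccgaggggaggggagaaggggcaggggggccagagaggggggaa
The motif occurred 3 times in the Sin3a run, 2 times in the Ing1 run, 2 times in the Gatad2a run, 5 times in the Rcor1 run and 0 times in the Arid4b run.

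Almost every peak of these genes was more accessible in Sin3B-/- LT-HSCs, by 1.39-fold to 2.36-fold. In 18 of the 19 peaks both Sin3B-/- libraries were higher than both Sin3B+/+ libraries, beside 95.7% of all peaks in the table, and this share near that of the table is no result about these genes. The genotypes overlapped in 0 of the 5332 peaks. Libraries that stand apart, described for single genes below, are therefore no result about those genes. The one lower peak lay downstream of Ing1, and the starts involved were mostly those of Sin3 complex subunits. By name, 27.1% of the 48 genes had a peak in the table, beside 15.8% of the 21755 protein-coding genes of the annotation. Having a row is the authors' own call of a difference, and peaks without such a call, and any differential peak outside the 5332 rows, were not analysed here, so "no peak" below means no row in this table, and how many of these genes had an accessible start without a difference cannot be read from the table. The genes with a row were long, with a median length of 88.7 kb against 27.3 kb for those without, beside 28.8 kb for all protein-coding genes with a row and 17.4 kb for all protein-coding genes, and the part of length in the counts was not tested.

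The name in the table missed some of the genes, because a peak over a start shared with a divergent or overlapping neighbour carries only 1 symbol. Of the 48 genes, 14 had an annotated start inside a peak, 8 in a peak under their own name and 6 in a peak under the name of a neighbour, beside 9.02% of protein-coding genes. ATAC-Seq reads carry no strand, so the level of such a peak cannot be divided between the genes that share it. With a name or an overlap of the gene body counted, 18 of the 48 genes had a peak, beside 18.4% of protein-coding genes, and 30 had none. The Sin3 complex held most of the starts: 9 of its 17 genes had a start inside a differential peak, beside the 9.02% of protein-coding genes. The count was 2 of 9 for NuRD, 1 of 2 for CoREST and 0 of 3 for NCoR/SMRT. For class IIa HDACs and for sirtuins it was 1 of 4 each. The shared subunit genes Hdac1, Hdac2, Rbbp4 and Rbbp7 were counted in groups of their own and not in these complexes. No start and no other peak of the 4 class I HDAC genes, the 3 class IIb and IV HDAC genes or the 2 histone chaperone genes was in the table.

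**Figure D1:**
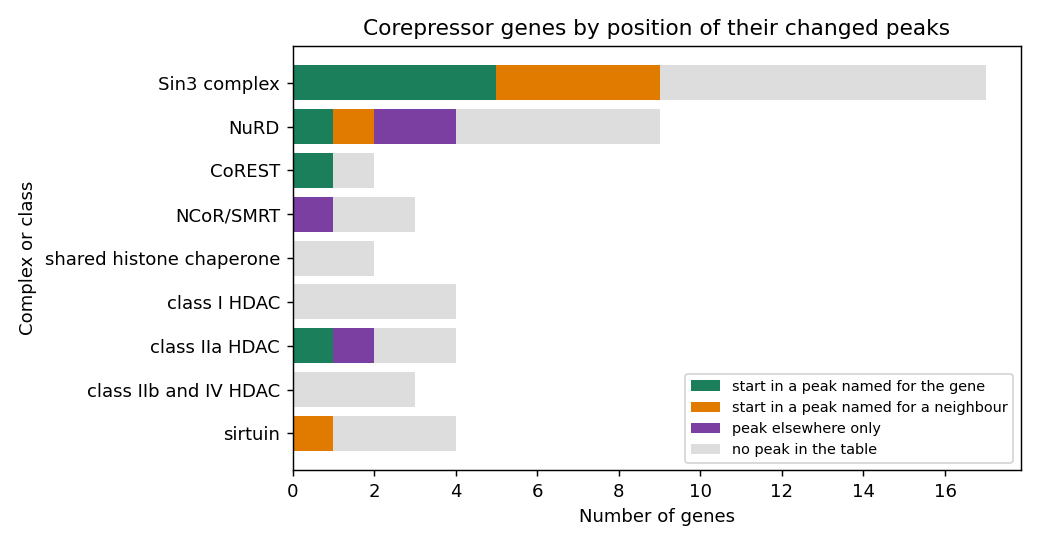
Number of genes in each complex or class (horizontal axis, genes), split by where their differential peaks lay: start in a peak named for the gene, start in a peak named for a neighbour, a peak elsewhere only, or no peak in the table. The Sin3 complex bar holds 5 genes of the first kind and 4 of the second among 17, and the class I HDAC bar is all grey.

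Both scaffold genes of the Sin3 complex come first. Sin3b, the deleted gene (chr8:72723285-72758201), had no row, and the nearest differential peak lay 67.5 kb from its start, so the table holds no check of the deletion. Its paralogue Sin3a had no row under its own name, but a peak at chr9:57075711-57076476, named for the lincRNA 2700012I20Rik, covered a second annotated Sin3a start, with its centre 4053 bases into the gene. The levels there were 2095 and 1610.3 in Sin3B+/+ against 2908 and 3276 in Sin3B-/- LT-HSCs. Both Sin3B-/- libraries stood above both Sin3B+/+ libraries, with a ratio of the means of 1.67 (limma log2 fold change 0.75, adjusted p = 0.000902). The first annotated start of Sin3a, upstream of this one, was not in any row.

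Ing1, which encodes a reader of the methylated histone H3 tail that recruits the Sin3 complex, had 3 peaks. At its start (chr8:11555176-11556251, over the first exon with its UTR) the levels were 2247 and 1757 in Sin3B+/+ against 2957 and 2978 in Sin3B-/- (1.48-fold, adjusted p = 0.00802 by limma). At its second start, in an intron (chr8:11557843-11558542), they were 1799.8 and 1503 against 2508 and 2892 (1.63-fold, adjusted p = 0.00153 by limma). Both start peaks were thus higher in each Sin3B-/- library than in either Sin3B+/+ library.

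The third Ing1 peak went the other way and was the one peak of the 19 that was lower in Sin3B-/- LT-HSCs. It lay in intergenic DNA downstream of the gene (chr8:11585500-11586427), with its centre 30392 bases from the start, and the table named it for Ing1 as the closest gene. The levels were 116 and 110.0 in Sin3B+/+ against 60.6 and 68 in Sin3B-/-, so that the Sin3B-/- libraries had 0.569 of the Sin3B+/+ mean (log2 fold change -0.81, adjusted p = 0.000384 by limma). Over all genes 4.29% of peaks were lower in Sin3B-/-, and this peak was low in level as well, since the 4 libraries had a mean of 88.7 against 2485 at the Ing1 start. Its central 200 bases (chr8:11585864-11586063, plus strand) are shown, chosen after the values were seen, because they differ in direction from the rest, and they held 0 of the motifs searched.
Ing1, downstream: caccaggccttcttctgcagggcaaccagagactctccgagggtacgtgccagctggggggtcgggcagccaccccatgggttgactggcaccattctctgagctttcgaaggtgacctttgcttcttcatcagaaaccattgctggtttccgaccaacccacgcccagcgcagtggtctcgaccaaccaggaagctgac

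**Figure D2:**
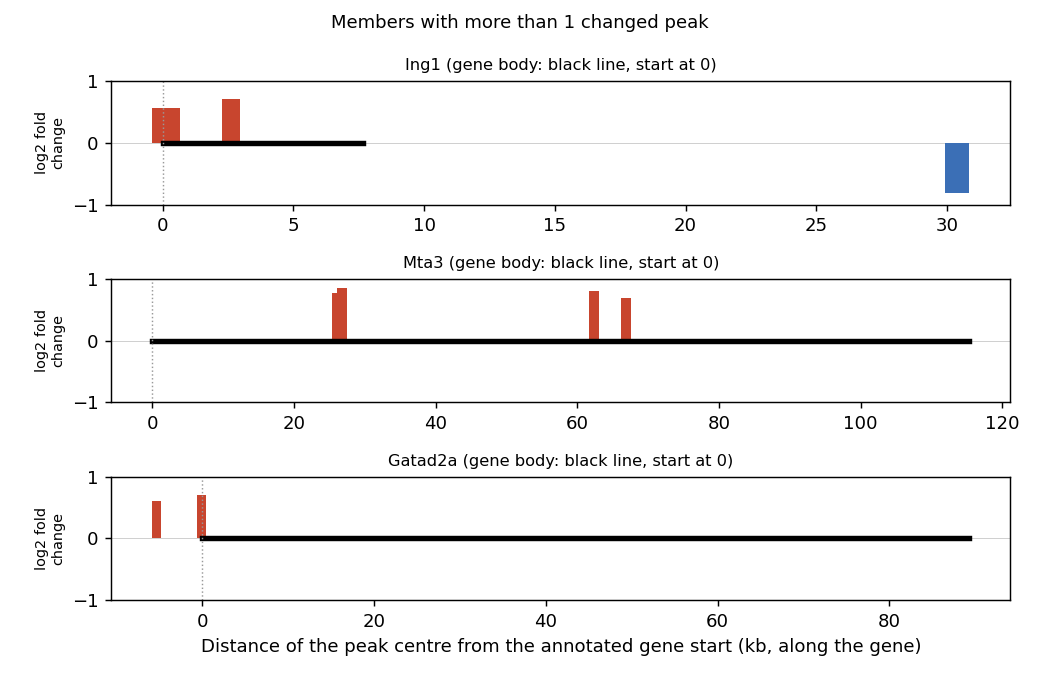
Position of each differential peak of Ing1, Mta3 and Gatad2a by its distance from the annotated gene start (horizontal axis, kb along the gene) and its log2 ratio of Sin3B-/- to Sin3B+/+ mean level (vertical axis). Bars above 0 were higher in Sin3B-/- and the bar below 0 lower, which is the Ing1 peak 30392 bases from the start, while the 4 Mta3 peaks lay inside the gene at 26094 to 66824 bases.

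Sap130, a Sin3-associated scaffold subunit, had the highest level of all 19 peaks, at its start on chromosome 18 (chr18:31634058-31635238). The levels were 2251 and 2049 in Sin3B+/+ against 3570.1 and 3756 in Sin3B-/-. The libraries of the genotypes were well apart there, with a ratio of 1.70 (log2 fold change 0.77, adjusted p = 0.000666 by limma).

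Arid4b, a chromatin-binding subunit that also contacts RB, had a peak over its start (chr13:14062961-14064133), where the start of the neighbour Ggps1 lies too. Its levels were 1540.1 and 1344 in Sin3B+/+ against 2201 and 2384 in Sin3B-/-, without overlap (1.59-fold, adjusted p = 0.00260 by limma). The paralogue Arid4a showed the same order at its start (chr12:71015234-71016192, named for the noncoding transcript 3110056K07Rik), with levels of 1536 and 1263 against 2011 and 2247 (1.52-fold, adjusted p = 0.00558 by limma).

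Morf4l1, a chromodomain protein that binds methylated histone H3 in gene bodies, had levels of 733 and 715 in Sin3B+/+ against 1147 and 1128 in Sin3B-/- at its start (chr9:90113609-90114922). The libraries of each genotype lay close together here, and the ratio of the means was 1.57 (adjusted p = 0.00334 by limma). Phf12, a PHD-finger subunit of the Sin3B form of the complex, had levels of 1423 and 1039.9 against 1658 and 1923 over its start (chr11:77981587-77982762), a ratio of 1.45 with a wide gap between both Sin3B+/+ libraries (adjusted p = 0.0108 by limma).

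The starts of Sap30 and Kdm5a lay in peaks named for neighbours. Sap30, which stabilizes the Sin3-HDAC core, had levels of 706 and 595 in Sin3B+/+ against 898 and 909 in Sin3B-/- (chr8:57487494-57488749, named for 2500002B13Rik). Its 1.39-fold difference was the smallest of all 25 peaks described here (adjusted p = 0.0263 by limma, and 0.0535 with the replicate number as a block). Kdm5a, a demethylase of histone H3, had levels of 697 and 474 against 817 and 967 (chr6:120363472-120364885, named for Ccdc77), so its genotypes did not overlap either, though both Sin3B+/+ libraries differed from each other by more than the gap between the genotypes (1.52-fold, adjusted p = 0.00445 by limma). The other 8 Sin3 complex genes, Sin3b, Sap18, Sap30l, Suds3, Brms1, Brms1l, Ing2 and Kdm5b, had no peak by name or overlap.

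In NuRD, peaks were found at both p66 subunit genes, Gatad2a and Gatad2b, which link the methyl-CpG-binding proteins to the remodeller. At the Gatad2a start (chr8:69996125-69996872) the levels were 1439 and 1139 in Sin3B+/+ against 1873 and 2326 in Sin3B-/- (1.63-fold, adjusted p = 0.00165 by limma). A second peak upstream of it (chr8:70001246-70002076, with its centre 5277 bases before the start) was lower in level, at 458 and 389.7 against 604 and 686 (1.52-fold, adjusted p = 0.00583 by limma). Both peaks were higher in each Sin3B-/- library. Gatad2a lies 2.73 Mb from the deleted Sin3b on the same chromosome, as Ing1 and Sap30 do at larger distances. The part of this position in the peaks was not tested. At the Gatad2b start (chr3:90292290-90293354, named for the antisense transcript 4930537H20Rik) the levels were 1049 and 868 against 1392 and 1652 (1.59-fold, adjusted p = 0.00269 by limma), again with both Sin3B-/- libraries higher.

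Mta3, a NuRD subunit that is expressed in selected lineages, had the most peaks of any of the 48 genes, 4, all in introns and all higher in Sin3B-/-. Of all protein-coding genes, 41 (0.188%) had 4 or more peaks. The strongest Mta3 peak (chr17:83731887-83732627) had levels of 681 and 540.2 in Sin3B+/+ against 958 and 1123 in Sin3B-/- (1.70-fold, adjusted p = 0.000636 by limma). The next one, under 1 kb away (chr17:83732869-83733139), had 82.1 and 56.6 against 106 and 144 (1.80-fold). The remaining pair, farther into the gene, had 105 and 106 against 196 and 173 (chr17:83768296-83768812, 1.75-fold) and 183 and 159 against 244 and 309 (chr17:83772670-83773305, 1.62-fold). In each of the 4 both Sin3B-/- libraries exceeded both Sin3B+/+ libraries, as in every higher peak of the table. No row covered the Mta3 start, which was 25.7 kb from the nearest of the 4 peaks.

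Chd3, an ATPase of the NuRD remodeller, had a peak 6455 bases upstream of its start (chr11:69375655-69376068). It was the lowest in level of all and had the largest ratio of means, with 33.8 and 47.3 in Sin3B+/+ against 98.1 and 93 in Sin3B-/- (2.36-fold, adjusted p = 7.95e-08 by limma). The more widely used ATPase gene Chd4 had no peak, nor did Mta1, Mta2, Mbd2 and Mbd3, or Rbbp4 and Rbbp7, which encode the histone chaperones that Sin3 and NuRD share.

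Rcor1, the CoREST scaffold, had a peak over its start (chr12:111038277-111039472) with levels of 791 and 645 in Sin3B+/+ against 1116 and 1186 in Sin3B-/- (1.60-fold, adjusted p = 0.00211 by limma). Its partner Kdm1a, the demethylase of CoREST, had none. In NCoR/SMRT, Tbl1x, which mediates exchange of corepressors, had an intron peak with its centre 98364 bases into the gene (chrX:77609003-77609751) and levels of 112 and 74.7 against 224 and 214 (2.35-fold, adjusted p = 5.33e-08 by limma). This gene is on the X chromosome and the study's methods state equal numbers of males and females as its general practice but do not give the sex of each pool, and the part of sex in this peak was not tested. Tbl1xr1 and Gps2 had no peak.

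Among the 11 HDAC genes, both with a peak were of class IIa, whose proteins shuttle between nucleus and cytoplasm. Hdac4 had its peak at an internal start 15097 bases into the gene (chr1:92180155-92181049), with levels of 1398 and 1146 in Sin3B+/+ against 1673 and 1871 in Sin3B-/-. The genotypes did not overlap, but the 1.39-fold difference was the smallest of the 19 (adjusted p = 0.0249 by limma) and missed the threshold with the replicate number as a block (adjusted p = 0.0513). Hdac9 had a weak peak deep in an intron of its 869.5-kb body (chr12:34249202-34249633), with levels of 44.5 and 41.5 against 105 and 83, clearly apart (2.19-fold, adjusted p = 1.61e-06 by limma). The class I genes Hdac1, Hdac2, Hdac3 and Hdac8 had no row by name or overlap, and the nearest differential peak lay 32.3 kb from the start of Hdac1 and 257 kb from that of Hdac2. The same held for Hdac5, Hdac6, Hdac7, Hdac10 and Hdac11.

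Of the sirtuins, Sirt2, a largely cytoplasmic deacetylase, had a peak in an intron (chr7:28780906-28781675) with levels of 70.1 and 73.4 in Sin3B+/+ against 153 and 145 in Sin3B-/-. The replicates nearly coincided within each genotype, and the ratio was 2.08 (adjusted p = 5.32e-06 by limma). The Sirt2 start lay in a second peak, named for the divergent Nfkbib (chr7:28766132-28766929), with 652 and 538 against 890.3 and 1034 (1.62-fold, adjusted p = 0.00188 by limma). Sirt1, Sirt6 and Sirt7, nuclear deacetylases, had no peak.

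**Figure D3:**
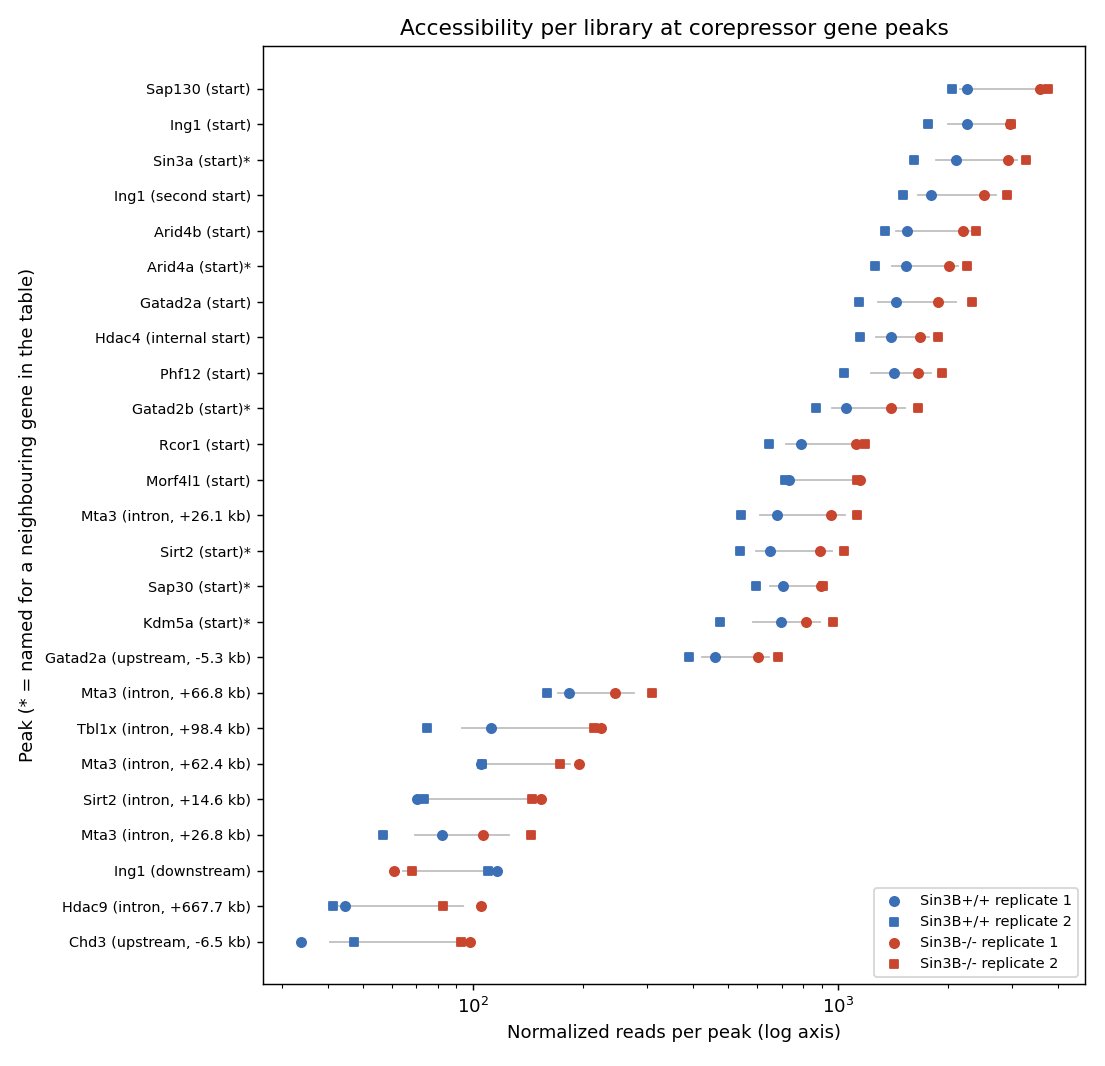
Level of each of the 25 peaks in every library (horizontal axis, normalized reads per peak, log axis), with circles for replicate 1, squares for replicate 2, blue for Sin3B+/+ and red for Sin3B-/-, and grey lines joining the genotype means. Asterisks mark peaks named for a neighbour. Red lies right of blue in every row except the Ing1 downstream peak.

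Over all complexes, limma called 18 of the 19 named peaks higher and 1 lower in Sin3B-/-, beside 95.7% and 4.29% of all peaks, and all 6 peaks named for neighbours were called higher. All 5332 rows had been chosen by the authors for a difference in this same contrast, so these calls, and groups that do not overlap, describe the spread between libraries and do not support the difference on their own. The limma standard error was 0.22 log2 units for every peak, because limma found one common spread. The median log2 ratio of the 19 peaks was 0.70, beside 0.76 for all peaks. The limma p-values therefore follow the size of the log2 fold change, and not how close the 2 pools per genotype were at a peak. An exact permutation test over the libraries cannot go below 0.333. In pooled cells, more cells open at a site and more open DNA in each cell cannot be told apart.

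Whether the direction rested on the scaling of the libraries cannot be told from rows chosen for a difference. The scaling itself differed by genotype, as given with the processing below. When each library was centred on its own median over the table, the median log2 fold change of all peaks moved from 0.76 to 0.0054, and 7.01% of the table was called higher by limma. Of the 18 higher peaks 0 were called, and the Ing1 downstream peak remained lower (log2 fold change -1.56, adjusted p = 0.000124). Among all 5332 peaks, limma called 229 lower without centring and 229 with it. That the Ing1 downstream peak stayed lower is thus no result about this peak. Since nearly all rows were higher in Sin3B-/-, such centring removes whatever they share. Without Sin3B-/- replicate 2, limma called 8 of the 19 named peaks and 1 of the 6 neighbour-named peaks higher, beside 58.5% of the table, and the median log2 fold change of the 19 was 0.63 against 0.71 with all libraries. Without Sin3B+/+ replicate 2 the counts were 15 and 4, beside 82.2% of the table, with a median of 0.58. The loss of calls was thus seen across the table, while the named peaks kept their directions. Sin3B+/+ replicate 2 had the lower Sin3B+/+ level in 22 of the 25 peaks, beside 87.7% of the table.

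The size of the difference went with the kind of peak. Of the 19 peaks, 9 held an annotated start (47.4%, against 34.6% of the table), and these had levels of 931 to 2907 and log2 ratios of 0.48 to 0.77 with a median of 0.67. The other 10 had levels of 68.0 to 826 with a median of 128 and log2 ratios of -0.81 to 1.24 with a median of 0.83. By the distance of the centre from a start, 7 of the 19 (36.8%) were promoter peaks, against 33.3% of the table. A doubling or more was seen in 4 peaks, those of Chd3, Hdac9, Sirt2 and Tbl1x, all of them away from a start and with mean levels of 68.0 to 156, beside 22.8% of the table. The table as a whole had the same order, with median log2 ratios of 0.65 for peaks with a start and 0.84 for the others, and 5.25% and 32.1% of them at least doubled. Among the 18 higher peaks the Spearman correlation of log2 ratio with mean level was -0.64 and among all higher peaks of the table it was -0.69, as a description over peaks of the same 4 libraries.

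**Figure D4:**
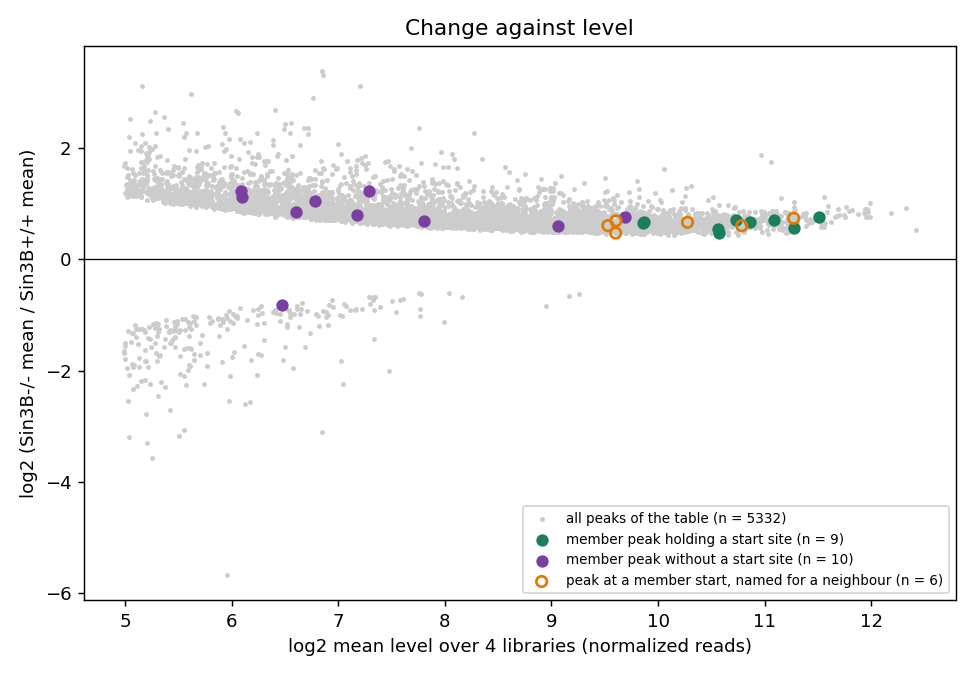
Log2 ratio of Sin3B-/- to Sin3B+/+ mean level (vertical axis) against the log2 mean level over 4 libraries (horizontal axis) for all 5332 peaks (grey), the 9 named peaks with a start (green), the 10 without (purple) and the 6 named for neighbours (orange rings). The start peaks lie at the right between 0.47 and 0.77, and the 4 peaks at or above 1 lie at the left.

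The sequence of the peaks followed their position. In the central 300 bases the peaks with a start had a median GC content of 63.7% and 22 CpG, and the others 49.8% and 5 CpG, beside 61.0% and 20 and 51.3% and 5 in the table. The SP letters GGGCGG, searched on both strands, were in 6 of the 9 start peaks (66.7%, against 59.0% of such peaks over all genes) and in 0 of the 10 others (15.2% in the table). The CHR letters TTTGAA, an element of cell cycle promoters, were in 4 of the 19 (21.1% against 13.6%), and the E-box CACGTG in 1 (5.26% against 6.86%). No match was found to the E2F letters TTTGGCGC or TTTCCCGC (1.24% of the table), to the NRF1 motif (0.450%) or to ETS CCGGAAGT (3.11%), with matches of different motifs allowed to overlap. A match of letters is a description and does not show binding.

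Promoter windows of RefSeq (GRCm38.p6, 250 bases before to 50 after a start) were matched for 38 of the 48 genes, as 51 windows. GGGCGG was in 39 of them (76.5%), against 35.7% of all 32851 windows, and the median CpG count was 24 against 7. Those 32851 windows were not limited to protein-coding genes, unlike the shares that follow. Windows overlapping a differential peak belonged to 11 of the 38 genes, or 28.9%, beside 9.59% of protein-coding genes with a window. With windows of at least 20 CpG alone, they belonged to 8 of 29 genes, 27.6%, beside 13.6%, and with windows of under 20 CpG to 3 of 13 genes, 23.1%, beside 7.04%, so CpG content moved with having a start peak across all genes, and its part in the counts was not tested further.

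Other genes of these or related complexes and families, 39 that were not among the 48, had a row for 13 (33.3%, beside 15.8% of protein-coding genes). Not all of them encode subunits of the complexes above, as with Sirt3, Tle1 and Kdm4a. They had 28 peaks, 27 higher and 1 lower in Sin3B-/-. Gse1, a subunit of a CoREST-like complex, had 9 of these peaks, with log2 ratios of -0.89 to 0.90, and Elmsan1, a scaffold of a mitotic deacetylase complex, had 4. Among 29 genes for proteins through which Sin3 complexes are known to reach DNA, 9 had a row (31.0%, beside the same 15.8%). Their 13 peaks were all higher, with log2 ratios of 0.57 to 2.17. The identity of the sorted cells could not be checked from rows chosen for a genotype difference. For description, 5 of 10 LT-HSC marker genes (Fgd5, Hoxb5, Mllt3, Procr and Slamf1) had 6 peaks, while Kit, Ly6a, Mecom, Hlf and Ctnnal1 had none. Of 13 marker genes of other cells 1, Pf4, had 2 peaks, beside the same 15.8% of protein-coding genes with a row. All these marker peaks were higher in Sin3B-/-. With 95.7% of all peaks higher, the directions in these lists are no result about their genes, and the short marker lists were not compared.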

How the data were processed

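ATAC-Seq libraries of sorted LT-HSCs were grouped by the labels as WT or KO, with 2 libraries per genotype. Per the submitters' processing notes and the study's methods, reads were trimmed with Trimmomatic and aligned with Bowtie2, peaks were called with MACS2, and DiffBind with DESeq2 tested genotype. The deposited table, as analysed here, held 5332 peaks, all below an FDR of 0.05, with the authors' normalized signal per library, in which all values of a library were whole multiples of 1 step within 0.0101 (100% of cases), as reads scaled by a single factor would be, though it was not established that a step is 1 read. Its remaining columns hold the authors' mean levels, fold, p-value and FDR, and were not used. The normalization within DiffBind and the tool versions were not given in the sources used here, and total depth is unknown. Summed steps over the peaks were 8705855 and 4836132 in Sin3B+/+ against 4541377 and 3102888 in Sin3B-/-. A step was 0.228 and 0.343 in level in Sin3B+/+ against 0.625 and 1 in Sin3B-/-. In steps the sums were thus higher in Sin3B+/+, and in levels they were higher in Sin3B-/-. The scaling went with genotype, and its part in the direction of the peaks was not tested. The processing notes name mm9, but 5330 of the 5332 gene identifiers were in GENCODE M21 and 96.6% of their gene positions were those of GRCm38, which was used.

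Members were found by symbol. Starts, exons and gene bodies were taken from GENCODE M21, promoter windows from RefSeq, and sequence from GRCm38 with samtools 1.23.1 and pysam 0.24.0. A promoter peak had its centre between 1000 bases before and 100 after a start. Ratios are of genotype means. Tests were made with limma 3.58.1 in R 4.3.3 on log2(level + 1), which can understate low peaks, over all rows with Benjamini-Hochberg adjustment at 0.05. The planned design fitted genotype alone. On simulated data of the same 5332 rows, limma called 99% of 200 peaks changed by 1 log2 unit and 0.136% of the others. The simulated noise was independent between peaks, as many peaks were raised as lowered, and no shift was shared within a library. The real rows differ in these points and were chosen for a difference, so the simulated rates do not carry over to them. Same-numbered libraries were pools of different mice, and their deviations had a correlation of -0.10, so the numbers were not taken to pair them. Alternatives were a replicate block, pseudocounts of 0.5 and 5, centring, a level filter, leaving out each library, and other peak-to-gene assignments. The 48 genes and the lists were chosen with earlier results of these data known. Every gene with a row is named, and values per library are given for all its peaks. Sequences were shown for Sin3a and for the 4 promoter peaks of largest ratio from different genes. Sap130, whose peak centre lay outside the promoter bounds, was not among them. Python 3.11.15, numpy 2.4.6, pandas 2.3.3 and matplotlib 3.10.9 were used.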

Additional observations from a re-analysis of the deposited data

How the results depend on the processing

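With 2 libraries per genotype, and rows chosen for a difference, these settings show how the values move and not how sure the difference is. For the 19 named peaks, 18 higher and 1 lower by limma, both counts held with pseudocounts of 0.5 and 5 and with the crossed pairing, which was added after the data were seen. A replicate block gave 17 higher and 1 lower, losing Hdac4. Centring gave 0 higher and 1 lower, and a median log2 fold change of -0.047 instead of 0.71. It also turned the sign of 16 of the 25 peaks, none then called. Centring sets the middle of the table near 0, with a median of 0.0054 over all peaks. The turned signs are thus no result about these genes. The centred log2 fold changes were -0.082 for Arid4b, -0.14 for Arid4a, -0.047 (start) and -0.15 (upstream) for Gatad2a, -0.085 for Gatad2b, -0.27 for Hdac4, -0.17 (start) and -0.041 (second start) for Ing1, -0.12 for Kdm5a, -0.10 for Morf4l1, -0.069 for the Mta3 peak 66824 bases into the gene, -0.20 for Phf12, -0.066 for Rcor1, -0.27 for Sap30, -0.0036 for Sin3a and -0.057 for the start of Sirt2. Another 8 kept their direction without a call. Over the table, centred calls were 374 higher and 229 lower, 62.0% higher against 95.7%.

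Peaks above the median level of the table were 11 of the 19, and 11 were called higher and 0 lower, since the Ing1 downstream peak was not among those tested. Leaving out each library in turn gave 8 to 18 named peaks called higher, beside 58.5% to 95.6% of the table, 1 lower each time, 1 to 6 of the 6 neighbour-named peaks called higher, and a median of 0.58 to 0.83, with the lone library assumed to vary like the other genotype. The lowest counts came without Sin3B-/- replicate 2, and the cause was not tested. By nearest start 12 and by gene body 17 of the 48 genes had a peak, instead of 13 by name, and by name or body 18. Tests on read counts with edgeR and DESeq2 had been planned and were not run, because the table holds scaled values and the recovery of reads from them was not established. Depth limits the weakest peaks most: the Chd3, Hdac9 and Ing1 downstream peaks rested on 68 to 509 steps per library.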

Other observations

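Outside the 48 genes, the largest differences among the genes for DNA-binding partners of Sin3 complexes were at low peaks inside or near the genes. Foxk1, a forkhead factor that binds Sin3, had an exon peak (chr5:142457340-142457799) with levels of 19.6 and 29.5 in Sin3B+/+ against 97.5 and 123 in Sin3B-/-, a log2 ratio of 2.17. Lin54, a DNA-binding subunit of the DREAM complex, had an intron peak (chr5:100466575-100467061) with 19.4 and 23.7 against 103 and 73, a log2 ratio of 2.03. Mxd1, a MAX partner that recruits Sin3, had a downstream peak at 15.3 and 15.8 against 51.9 and 67, and a start peak at 918 and 655 against 1100.3 and 1240, with log2 ratios of 1.94 and 0.57. In each of these 4 peaks both Sin3B-/- libraries were higher, as in 95.7% of the table. The peaks were picked for their size after the values were seen, from rows chosen for a difference in this contrast.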
